A study of Homo sapiens with 18 samples.

Results

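Negative feedback genes of the ERK pathway, and the ETS factor genes ETV4 and ETV5, were measured as mRNA in SJSA-1 cells. SJSA-1 is an osteosarcoma line with amplified MDM2 and CDK4 genes. The feedback genes are the MAP kinase phosphatases DUSP1, DUSP4, DUSP5 and DUSP6 and the Sprouty and SPRED genes SPRY2, SPRY4, SPRED1 and SPRED2. ETV4 and ETV5 are counted with them as members. These 10 genes were chosen by symbol for what they are known to do. Earlier results of these data were known at that time, so the choice is not independent of the data. All 10 were found among the 23368 gene rows of the deposited tables and passed the filters on low values. RNA was sequenced from 6 groups with 3 replicates each, 18 libraries in all. The DMSO group received the solvent. The Nutlin group received 20 µM Nutlin, an MDM2 antagonist that activates p53, for the last 6 h. PD0332991 (Palbociclib), an inhibitor of CDK4 and CDK6, was given at 10 µM for 30 h (PD30), or for 24 h and then taken away for the last 6 h (PD24). The N+PD24 and N+PD30 groups received either schedule of PD0332991 with Nutlin in the last 6 h. All cells came from a single established line, and the study calls the replicates biological, so p-values measure the spread between libraries of this line. The sources used here do not say whether cells that kept PD0332991 or never had it received fresh medium when it was taken from PD24 and N+PD24, so removal and a change of medium cannot be told apart.

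ERK is the last kinase of a cascade in which growth factor receptors activate RAS, RAF and MEK in turn. Active ERK switches on genes that damp the same cascade. DUSP proteins remove phosphate from ERK and related kinases, Sprouty proteins act between receptors and RAS, and SPRED proteins bring the RAS inactivator neurofibromin to the membrane. The mRNAs of DUSP6, SPRY2, SPRY4, ETV4 and ETV5 are widely used as readouts of ERK output, but other pathways also control these genes, and mRNA does not measure ERK phosphorylation.

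The member genes lie on 9 chromosomes. On GRCh37, the GENCODE annotation of the build used by the authors, DUSP1 spans chr5:172195099-172198198, DUSP5 chr10:112257665-112271291, DUSP6 chr12:89741012-89746278, SPRY2 chr13:80910111-80915261 and SPRY4 chr5:141689992-141706020. SPRED1 spans chr15:38545037-38649450, SPRED2 chr2:65537985-65659771, ETV4 chr17:41605212-41656988 and ETV5 chr3:185764103-185828107, and DUSP4 is on chromosome 8. DUSP5 and SPRED1 are on the plus strand and the others on the minus strand. DUSP6 shares 1105 exonic bases with a noncoding RNA gene on the opposite strand, ETV4 shares 68 with DHX8 on the opposite strand, and ETV5 shares 164 with DGKG on its own strand, so reads from these stretches cannot be assigned with certainty.

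Total counts per library ranged from 12704845 to 40231041, and the lowest total was that of N+PD30 replicate 1. The targeted responses followed the labels. CDKN1A, a p53 target, was at 219, 190.2 and 143 CPM (reads of the gene per 1000000 counted reads of the library) in the DMSO libraries and at 3859, 4144 and 3949 CPM with Nutlin, and the proliferation marker MKI67 fell from 642, 656 and 755 CPM in DMSO to 6.61, 4.64 and 4.43 CPM in PD30. The summed level of 8 osteoblast and mesenchymal markers was 5600 to 8964 CPM in the 18 libraries. The summed level of 8 markers of other cell types was 27.8 to 33.0 CPM in DMSO and 45.4 to 72.1 CPM in the treated groups. Most of that sum came from CD68 and KRT8, while CD3E and PTPRC averaged at most 0.283 CPM in any group. This list rose with every treatment, and its part in the results below was not tested. In bulk RNA, fewer cells of a kind and less RNA per cell cannot be told apart.

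In PD24 against DMSO, the members that rose at an adjusted p under 0.05 were DUSP1, DUSP6 and SPRY4. The 250 bases before the RefSeq start sites of DUSP1 and DUSP6 are shown for that reason. DUSP1 also rose in PD30, while PD0332991 was present. In N+PD24 against Nutlin, DUSP6 did not pass the test, while DUSP1, SPRY4, SPRED1 and SPRED2 rose. RefSeq promoter windows of 300 bases (250 before and 50 after the start site, GRCh38.p14) were used for 6 of the 10 members, the first listed for each. Each of those printed matched GRCh37 at a single place. Both lie on the minus strand and read 5′ to 3′ toward the gene. Capitals mark a match to the cyclic AMP response element (CRE, TGACGTCA), to which CREB and ATF factors bind.
DUSP1, chr5:172198199-172198448: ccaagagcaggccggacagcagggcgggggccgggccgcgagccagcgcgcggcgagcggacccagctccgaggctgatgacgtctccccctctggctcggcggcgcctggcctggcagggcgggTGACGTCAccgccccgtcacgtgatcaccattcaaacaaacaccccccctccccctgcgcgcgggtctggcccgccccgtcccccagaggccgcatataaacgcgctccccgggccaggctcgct
DUSP6, chr12:89746279-89746528: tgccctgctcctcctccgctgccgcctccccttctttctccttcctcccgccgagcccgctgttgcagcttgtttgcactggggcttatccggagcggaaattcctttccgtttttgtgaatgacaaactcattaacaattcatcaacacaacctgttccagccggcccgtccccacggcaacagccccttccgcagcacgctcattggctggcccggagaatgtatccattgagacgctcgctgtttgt
The DUSP1 window lies in no annotated exon, and the DUSP6 window lies outside the annotated DUSP6 gene but wholly in annotated exons. The SPRY4 window is not shown, since it lies inside the annotated span of SPRY4 and 170 of its 250 bases are in annotated exons. Which gene or transcript these exons belong to was not recorded.

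The windows of 300 bases were searched on both strands for the CRE, the AP-1 site TGANTCA, the ETS site CCGGAAGT, the E2F site TTTGGCGC, the CArG box bound by serum response factor, and the p53 half-site. The CRE of DUSP1, 125 to 118 bases before the start site, was the single match in the 6 windows. Among 35116 promoter windows of the same length, 1.85% held a CRE, 7.71% the AP-1 site, 4.14% the ETS site, 0.652% the E2F site, 1.29% a CArG box and 6.63% a p53 half-site. A match is a description of letters, not of binding, and no match says only that these letters are not in the window.

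Levels of different genes were compared per kilobase of exon, as means over the 6 groups. The length joined the exons of all GENCODE transcripts of a gene, used or not in these cells, so the order depends in part on that annotation. DUSP1 was the most abundant member at 113 CPM per kb, followed by DUSP5 at 32.8, SPRY2 at 19.8, SPRY4 at 16.9, ETV5 at 12.8 and DUSP4 at 10.3 CPM per kb. SPRED2 (9.49), SPRED1 (7.54), DUSP6 (7.38) and ETV4 (7.33 CPM per kb) were the lowest, and these last 3 differed by less than the SD between libraries of a group. Each member varied between groups by a limited amount. The highest group mean was 3.15 times the lowest for ETV5, 2.69 times for DUSP1, 2.47 times for SPRED1 and 2.45 times for SPRY4, and between 1.81 and 1.98 times for the other 6. The lowest count of any member in any library was 177 reads, for ETV4 in N+PD30 replicate 1, so none of the values rests on a few reads.

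**Figure D1:**
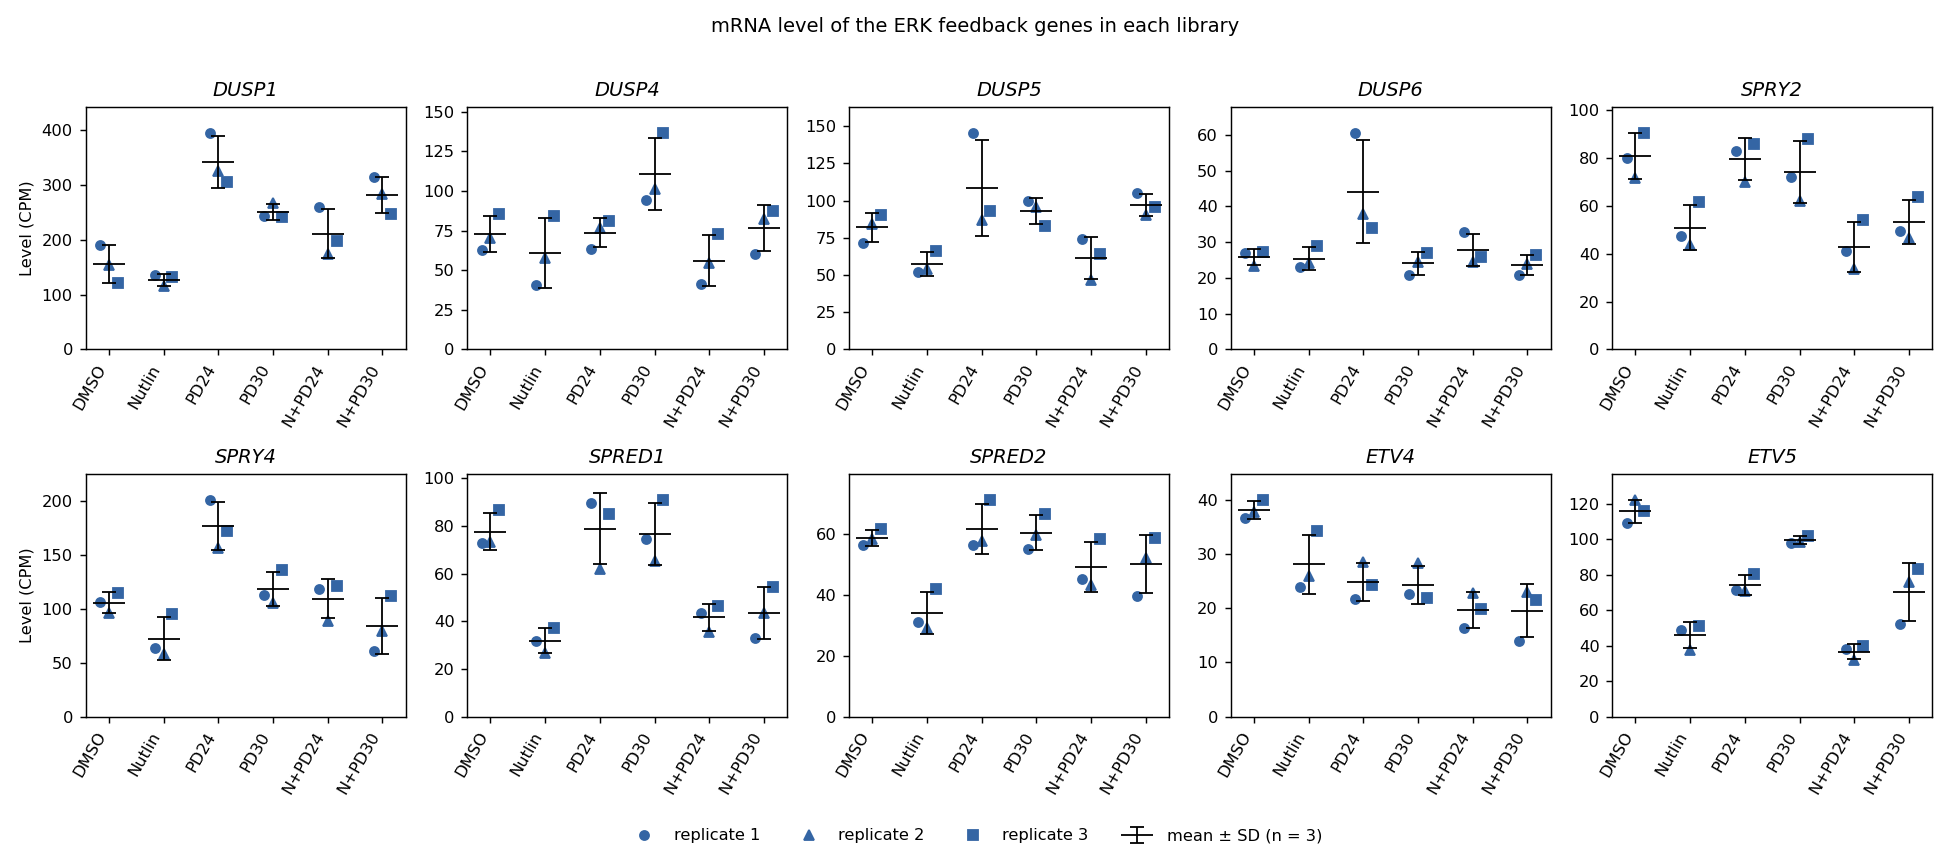
Level of each member in every library, in CPM (linear axes that start at 0), for the 6 groups. Circles, triangles and squares are replicates 1, 2 and 3, and the bar is the mean with its SD (n = 3). DUSP6 and SPRY4 are highest in PD24, ETV5 is highest in DMSO, and SPRED1 is lower in all 3 groups with Nutlin than in DMSO.

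The first comparison asked how these genes respond to Nutlin alone. In Nutlin against DMSO, 6 of the 10 members fell at an adjusted p under 0.05, and the other 4 did not pass the test. Over all genes tested, 28% fell and 26.6% rose by the same rule. The median log2 fold change of the members was -0.41, and that of all genes was 0.03. The falls covered both SPRED genes, both Sprouty genes, 1 phosphatase and 1 ETS factor.

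ETV5, an ETS factor of the PEA3 family, had 109, 122 and 116 CPM in the DMSO replicates and 48.8, 37.4 and 51 CPM with Nutlin. It fell 2.32-fold (log2 fold change -1.22 ± 0.12 (SE), adjusted p = 2.39e-05), with a wide gap between the groups. Its relative ETV4 had 36.7, 37.8 and 40 CPM in DMSO and 24, 26 and 34.3 CPM with Nutlin. In CPM by library total, the ETV4 groups did not overlap either. The test scaled libraries by TMM, relative to which library totals shifted the median of all genes by -0.13 on the log2 scale. The ETV4 difference missed the threshold (log2 fold change -0.32 ± 0.13 (SE), adjusted p = 0.0555). With total-count scaling, without the low-value filter, with DESeq2 and without Nutlin replicate 3 it passed, at adjusted p from 0.00714 to 0.0498.

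SPRED1, which recruits neurofibromin to RAS, had 73.1, 73.2 and 86.8 CPM in DMSO and 31.9, 26.8 and 37 CPM with Nutlin, a 2.24-fold fall (log2 fold change -1.16 ± 0.12 (SE), adjusted p = 4.19e-05). SPRED2, a close relative with the same action, had 56.3, 58.2 and 61.5 CPM and 31, 29 and 41.8 CPM. It fell 1.59-fold (log2 fold change -0.67 ± 0.13 (SE), adjusted p = 0.00148). No Nutlin library of either gene reached the lowest DMSO library. SPRY2, an inhibitor of receptor signalling to RAS, had 80.3, 71.8 and 90.7 CPM in DMSO and 47.5, 43.7 and 61.6 CPM with Nutlin (log2 fold change -0.55 ± 0.13 (SE), adjusted p = 0.00527). SPRY4, which acts at the same level, had 106, 95.7 and 115 CPM and 63.4, 57.8 and 95.1 CPM. In CPM by library total, its groups lay only just apart, since Nutlin replicate 3 almost reached DMSO replicate 2 (log2 fold change -0.43 ± 0.16 (SE), adjusted p = 0.0395).

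Among the phosphatases, DUSP5, a nuclear phosphatase specific for ERK, had 71.6, 84.1 and 90.5 CPM in DMSO and 51.7, 53.8 and 66.3 CPM with Nutlin, a 1.32-fold fall (log2 fold change -0.40 ± 0.12 (SE), adjusted p = 0.0168). DUSP6, the cytoplasmic ERK phosphatase, had 26.9, 23.4 and 27.2 CPM and 23, 24.2 and 29 CPM. These groups overlapped, and the 95% interval of the log2 difference ran from -0.16 to 0.36. DUSP1, a nuclear phosphatase for ERK, JNK and p38, had 190.4, 154 and 122 CPM in DMSO and 136, 115 and 131 CPM with Nutlin (log2 fold change -0.16 ± 0.15 (SE), adjusted p = 0.367). DUSP4, its nuclear relative, had 62.9, 70.3 and 85.3 CPM and 40.4, 57.4 and 84.5 CPM, with the Nutlin replicates spread widely (log2 fold change -0.14 ± 0.22 (SE), adjusted p = 0.594).

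The calls for ETV5, SPRED1, SPRED2 and SPRY2 held under every alternative run, except that SPRED2 and SPRY2 missed an added threshold of an absolute log2 fold change over 1. Those for SPRY4 and DUSP5 did not. SPRY4 missed the threshold without DMSO replicate 1 or 3 or Nutlin replicate 1 or 2 (adjusted p 0.0697 to 0.143), and DUSP5 without DMSO replicate 2 or 3 or Nutlin replicate 2 (0.0553 to 0.0564). Both also missed it with upper-quartile normalization (0.101 and 0.0551) and with 1 fit over all groups (0.0734 and 0.0544). Relative to TMM, total-count scaling shifted the median of all genes by -0.13 and upper-quartile normalization by 0.11 on the log2 scale. The share of calls that were higher was 48.7% with TMM, 36.7% with total counts and 58.9% with the upper quartile, while the called members were lower under each.

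The rest of the pathway did not move in a single direction with Nutlin. Of the other Sprouty, SPRED and ETS genes, 3 of 5 tested fell and 1 rose. SPRY1 fell (log2 fold change -0.98 ± 0.21 (SE), adjusted p = 0.00293), as did the ERK-controlled ETS repressor ERF (-0.98) and the third PEA3 factor, ETV1 (-0.86). Of the 6 other MAP kinase phosphatases 2 fell, DUSP7 (-0.64) and DUSP16 (-0.51). Of 12 other ERK target genes 3 fell and 2 rose. The immediate-early genes FOS and EGR1 fell by 2.20 and 1.22 on the log2 scale, from low levels of 2.15, 1.66 and 1.55 CPM for FOS in DMSO, and the receptor gene EPHA2 rose by 0.78. Of 14 receptors and adaptors 5 fell, with PDGFRA at -2.03 and the adaptor GAB1 at -1.44, and 4 rose, with IGF1R at 1.21. Of the 15 RAS, RAF, MEK and ERK genes 5 fell and 3 rose. HRAS rose from 27.9, 28.6 and 25.3 CPM in DMSO to 48.9, 54.2 and 49.5 CPM (log2 fold change 1.03 ± 0.10 (SE), adjusted p = 3.43e-05).

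The next comparisons asked what PD0332991 does without Nutlin, both while present and after its removal. PD30 and PD24 were each compared with the same DMSO libraries, and PD30 with PD24, so these results are not independent of each other. In PD30 against DMSO 2 members rose and 2 fell, where 22.9% of all genes tested rose and 25.4% fell. In PD24 against DMSO 3 members rose and 2 fell, where 17.5% of all genes rose and 20.8% fell. The members that moved differed in part between the schedules, and the direct comparison of PD30 with PD24 called 5 of the 10. Of all genes tested there, 12.2% were higher in PD30 and 12.9% lower.

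DUSP6 was among the genes raised after removal. It had 26.9, 23.4 and 27.2 CPM in DMSO, 20.8, 24.3 and 27.1 CPM in PD30 and 60.6, 37.9 and 33.9 CPM in PD24. All 3 PD24 replicates were above every library of the other 2 groups, and replicate 1 was far above the rest. DUSP6 rose 1.74-fold in PD24 against DMSO (log2 fold change 0.80 ± 0.21 (SE), adjusted p = 0.0149) and was 1.88-fold lower in PD30 than in PD24 (log2 difference -0.91 ± 0.21 (SE), adjusted p = 0.0138). In PD30 against DMSO its log2 fold change was -0.12 ± 0.12 (SE), adjusted p = 0.45, with a 95% interval of -0.39 to 0.15. The rise in PD24 missed the threshold without DMSO replicate 2 (adjusted p = 0.0607), and the difference from PD24 missed it without PD30 replicate 1 (0.051).

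SPRY4 had the same order. It had 200.4, 156 and 172 CPM in PD24, against 106, 95.7 and 115 CPM in DMSO and 113, 105 and 136 CPM in PD30. The PD24 replicates were again all above the libraries of both other groups. SPRY4 rose 1.7-fold against DMSO (log2 fold change 0.76 ± 0.11 (SE), adjusted p = 0.000884) and was 1.53-fold lower in PD30 than in PD24 (log2 difference -0.62 ± 0.13 (SE), adjusted p = 0.00788). Both calls held under every alternative run except the added fold threshold. In PD30 against DMSO SPRY4 did not pass the test (log2 fold change 0.15 ± 0.11 (SE), adjusted p = 0.293).

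DUSP1 rose under both schedules. It had 243, 267 and 242 CPM in PD30 and 395, 325 and 306 CPM in PD24, and each of these libraries was above the highest DMSO library of 190.4 CPM. DUSP1 rose 1.6-fold in PD30 (log2 fold change 0.68 ± 0.15 (SE), adjusted p = 0.00396) and 2.24-fold in PD24 (log2 fold change 1.16 ± 0.17 (SE), adjusted p = 0.000785). It was higher in PD24 than in PD30 (log2 difference of PD30 from PD24 -0.48 ± 0.12 (SE), adjusted p = 0.0171). That last call was lost without PD30 replicate 1 or 3 (adjusted p = 0.0744 and 0.0619).

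DUSP4 showed another order, since it was highest while PD0332991 was present. It had 94.5, 101 and 137 CPM in PD30, 63.5, 76.3 and 81 CPM in PD24 and 62.9, 70.3 and 85.3 CPM in DMSO. It rose 1.51-fold in PD30 against DMSO (log2 fold change 0.59 ± 0.15 (SE), adjusted p = 0.00988), and PD30 was also above PD24 (log2 difference 0.55 ± 0.15 (SE), adjusted p = 0.0278). In PD24 the groups overlapped with DMSO (log2 fold change 0.04 ± 0.14 (SE), adjusted p = 0.843). The difference between the schedules was lost without PD24 replicate 1 or PD30 replicate 3 (adjusted p = 0.0947 and 0.0871) and with 1 fit over all groups (0.0612). The fourth phosphatase, DUSP5, had 99.5, 96 and 83.2 CPM in PD30 and 146, 86.8 and 93.2 CPM in PD24. Replicate 1 alone stood high in PD24, the groups overlapped, and DUSP5 passed the test in neither schedule (adjusted p = 0.244 and 0.105).

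Both ETS factors fell. ETV4 had 22.6, 28.4 and 21.9 CPM in PD30 and 21.7, 28.5 and 24.3 CPM in PD24, all below the lowest DMSO library of 36.7 CPM. It fell 1.58-fold in PD30 (log2 fold change -0.66 ± 0.12 (SE), adjusted p = 0.00148) and 1.51-fold in PD24 (log2 fold change -0.60 ± 0.13 (SE), adjusted p = 0.00709), and the 2 schedules did not differ beyond their spread (adjusted p = 0.802, 95% interval of the log2 difference -0.42 to 0.30). ETV5 had 71.2, 70.9 and 80.5 CPM in PD24 and 97.6, 98.6 and 102 CPM in PD30. It fell 1.53-fold in PD24 (log2 fold change -0.62 ± 0.09 (SE), adjusted p = 0.00103) and was 1.31-fold higher in PD30 than in PD24 (log2 difference 0.39 ± 0.09 (SE), adjusted p = 0.0166).

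The fall of ETV5 in PD30 was small, at 1.18-fold (log2 fold change -0.23 ± 0.08 (SE), adjusted p = 0.0294). It missed the threshold without DMSO replicate 2 or 3 or PD30 replicate 1 or 2 (adjusted p 0.0607 to 0.146), with upper-quartile normalization (0.0802) and with 1 fit over all groups (0.219). The higher ETV5 level in PD30 than in PD24 was lost without PD30 replicate 1 or 2 (0.0657 and 0.0583).

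SPRY2, SPRED1 and SPRED2, which fell with Nutlin, passed the test in neither schedule of PD0332991. SPRY2 had 72.2, 62.2 and 87.9 CPM in PD30 and 83.1, 69.9 and 86.2 CPM in PD24. SPRED1 had 74.6, 65.2 and 90.9 CPM in PD30 and 89.6, 61.9 and 85.3 CPM in PD24, and SPRED2 55, 59.5 and 66.6 CPM and 56.3, 57.5 and 71 CPM. The groups overlapped with DMSO in each case. The 95% intervals of the log2 fold change in PD30 were -0.43 to 0.15 for SPRY2, -0.31 to 0.25 for SPRED1 and -0.18 to 0.23 for SPRED2.

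**Figure D2:**
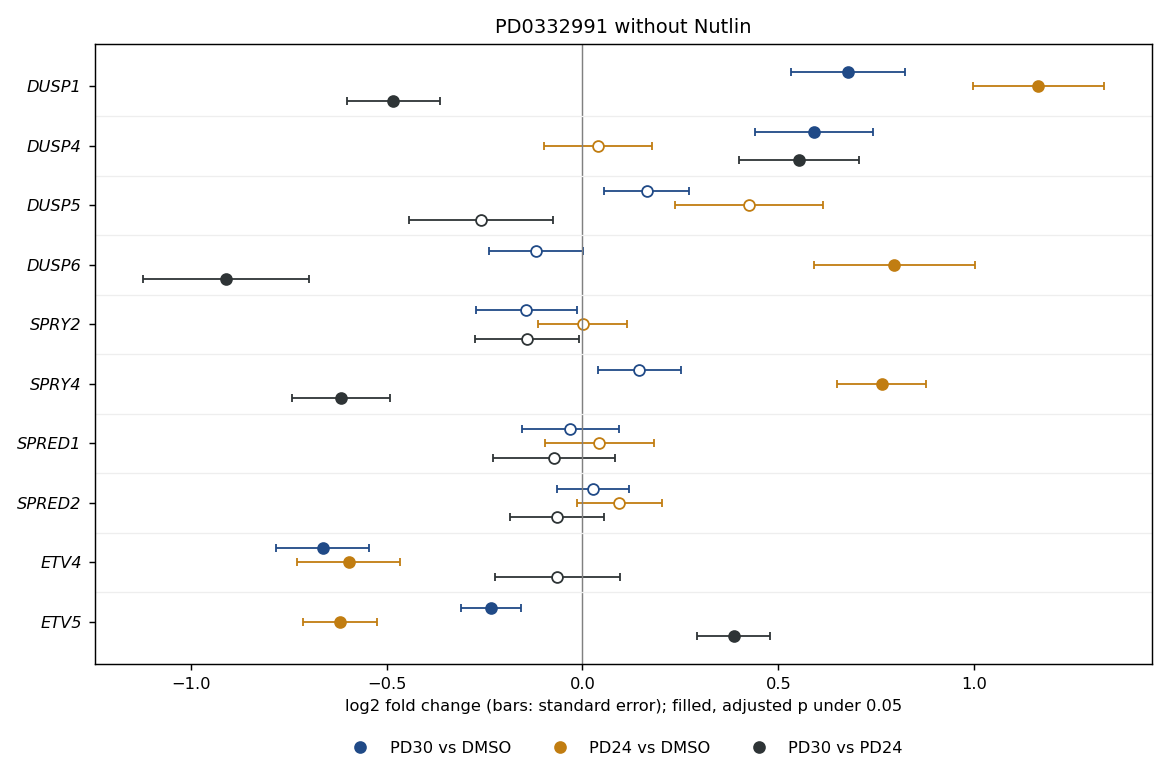
log2 fold change of each member in PD30 against DMSO, PD24 against DMSO and PD30 against PD24, with bars for the standard error. Filled points passed an adjusted p of 0.05. DUSP6 and SPRY4 lie to the right in PD24 against DMSO and to the left in PD30 against PD24, and ETV4 lies to the left in both comparisons with DMSO.

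Same-numbered PD30 and PD24 libraries deviated together, and with the replicate number as a block 6107 genes differed between PD30 and PD24 instead of 3816. The count of members called stayed at 5.

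Other ERK target genes were lower with PD0332991 still present. In PD30 against PD24, 6 of 12 were lower and the other 6 did not pass the test, with a median log2 difference of -0.75 against -0.02 for all genes. The growth factor gene HBEGF had 86.2, 49 and 41.3 CPM in PD24 and 19.1, 21.8 and 28.4 CPM in PD30 (log2 difference -1.38 ± 0.26 (SE), adjusted p = 0.00574). PLAUR, the urokinase receptor, had 98.8, 88.3 and 74.5 CPM and 40.7, 33.9 and 34.5 CPM (-1.30 ± 0.13 (SE), adjusted p = 0.000467), and the AP-1 subunit FOSL1 142, 135 and 145 CPM and 60.2, 56.8 and 81.2 CPM (-1.13 ± 0.13 (SE), adjusted p = 0.000719). For each of the 3 the PD24 replicates were above every PD30 replicate.

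The other MAP kinase phosphatases split between the schedules as DUSP6 and DUSP4 did, with 2 of 6 lower and 2 higher in PD30. DUSP2, an inducible nuclear phosphatase, was low in all groups but had 2.41, 3.08 and 3.23 CPM in PD24 and 0.585, 0.695 and 0.397 CPM in PD30 (log2 difference -2.41 ± 0.27 (SE), adjusted p = 0.000599). DUSP7, a cytoplasmic ERK phosphatase related to DUSP6, had 25.6, 29.7 and 25.6 CPM and 11.7, 13.5 and 16 CPM (-1.01 ± 0.15 (SE), adjusted p = 0.00187). DUSP8, which acts on JNK and p38, was higher in PD30, at 4.24, 4.23 and 9.06 CPM against 1.94, 2.66 and 1.96 CPM (1.39 ± 0.32 (SE), adjusted p = 0.0131). ETV1 was also higher in PD30 (0.66 ± 0.12 (SE), adjusted p = 0.00485). Of 14 receptors and adaptors 1 passed the test, FGFR1, which was lower in PD30 (-0.70 ± 0.15 (SE), adjusted p = 0.00837). The 15 RAS, RAF, MEK and ERK genes lay between log2 differences of -0.28 and 0.30.

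**Figure D3:**
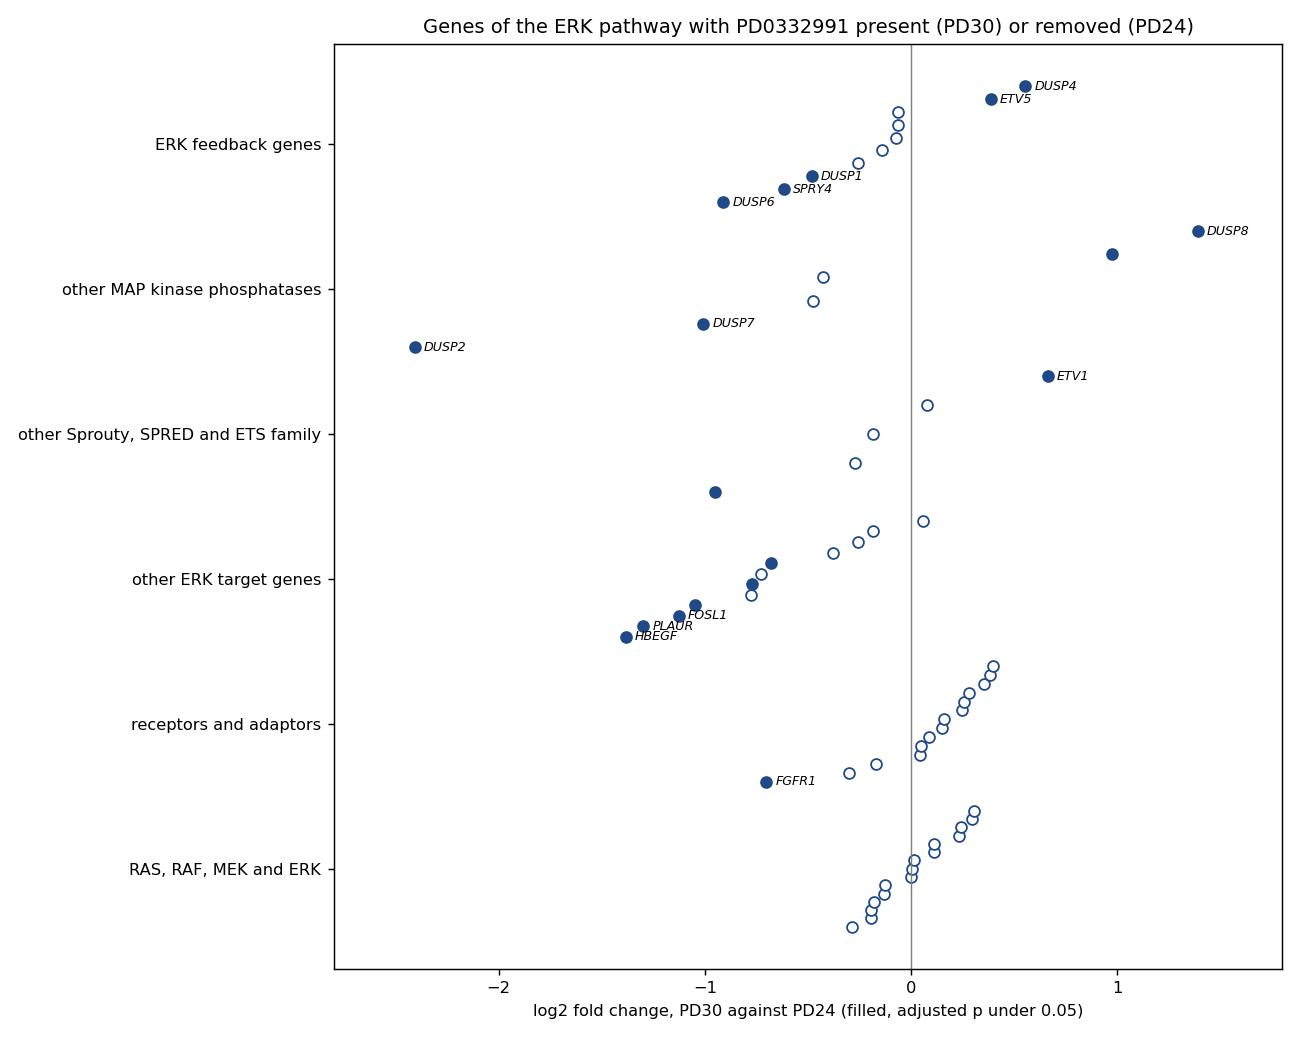
log2 fold change in PD30 against PD24 of the 10 members and of 5 lists of other ERK pathway genes, 1 point per gene and sorted within a list. Filled points passed an adjusted p of 0.05, and the members and up to 3 genes per list are named. The other ERK target genes lie mostly to the left (lower in PD30), while the RAS, RAF, MEK and ERK genes stay between -0.28 and 0.30.

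Against DMSO, several of the same lists moved under both schedules. The other ERK target genes counted 3 higher and 4 lower of 12 in PD30, and 6 higher and 2 lower in PD24. LIF, a cytokine gene, rose in both (1.21 in PD30 and 1.40 in PD24 on the log2 scale), and EGR1 fell in both (-2.26 and -1.53). PLAUR rose by 1.54 in PD24, and FOS fell by 2.03 in PD30. Of the other phosphatases 2 rose and 1 fell in PD30, among them DUSP8 (1.03), and 3 rose and 1 fell in PD24, led by DUSP2 (1.72) and DUSP10 (0.92). SPRY1 fell by 1.46 and 1.27, and ETV1 by 0.43 and 1.09. PDGFRA, a receptor upstream of RAS, fell from 30.8, 29.5 and 20.8 CPM in DMSO to 7.06, 7.01 and 7.41 CPM in PD30 and 7.94, 5.9 and 5.92 CPM in PD24. Of the receptors and adaptors 1 rose and 2 fell in PD30, and 2 rose and 4 fell in PD24. The RAS, RAF, MEK and ERK list counted 2 higher and 5 lower of 15 in each, with MAPK3, which encodes ERK1, higher in PD30 (0.75) and the ERK-activated kinase gene RPS6KA3 lower (-0.73 and -0.53).

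The same question was asked in cells that also received Nutlin. N+PD30 against Nutlin raised 4 members and lowered 1, where 24.3% of all genes rose and 24.7% fell. The median log2 fold change of the members was 0.36, against 0.00 for all genes. N+PD24 against Nutlin raised 4 members at the threshold, where 18.6% of all genes rose and 18.8% fell. Its median was 0.17, against 0.02. DUSP1 and SPRED2 rose in both, and the Nutlin libraries are shared by both comparisons.

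DUSP1 had 314, 284 and 247 CPM in N+PD30 and 261, 174 and 198 CPM in N+PD24, against at most 136 CPM in a Nutlin library. It rose 2.17-fold in N+PD30 (log2 fold change 1.11 ± 0.14 (SE), adjusted p = 0.000103) and 1.72-fold in N+PD24 (log2 fold change 0.78 ± 0.16 (SE), adjusted p = 0.00453), and both calls held under every alternative run, except that N+PD24 missed the added fold threshold. DUSP5 had 105, 90.5 and 96 CPM in N+PD30, all above the Nutlin libraries, and rose 1.66-fold (log2 fold change 0.73 ± 0.13 (SE), adjusted p = 0.00106). In N+PD24 it had 74.2, 46.3 and 64 CPM, which overlapped with Nutlin (log2 fold change 0.15 ± 0.17 (SE), adjusted p = 0.524).

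SPRY4 showed the opposite order. It had 118, 88.5 and 121 CPM in N+PD24, where it rose 1.6-fold against Nutlin (log2 fold change 0.68 ± 0.18 (SE), adjusted p = 0.0182) although the groups overlapped. In N+PD30 it had 60.4, 79.3 and 111 CPM (log2 fold change 0.18 ± 0.21 (SE), adjusted p = 0.517). The rise in N+PD24 missed the threshold without Nutlin replicate 1 or 2 or N+PD24 replicate 3 (adjusted p 0.0547 to 0.0879). DUSP6 had 32.9, 24.5 and 25.9 CPM in N+PD24 and 20.9, 23.9 and 26.4 CPM in N+PD30, and passed the test in neither (95% intervals of the log2 fold change -0.15 to 0.52 and -0.44 to 0.17).

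The SPRED genes, lowered by Nutlin, were higher with PD0332991 and Nutlin than with Nutlin alone in part. SPRED2 had 39.6, 52.1 and 58.4 CPM in N+PD30 (log2 fold change 0.52 ± 0.16 (SE), adjusted p = 0.0216) and 45.2, 43.3 and 58.4 CPM in N+PD24 (log2 fold change 0.59 ± 0.15 (SE), adjusted p = 0.0143). SPRED1 had 43.4, 35.4 and 46.4 CPM in N+PD24, where it rose (log2 fold change 0.45 ± 0.14 (SE), adjusted p = 0.0323), and 32.9, 43.3 and 54.6 CPM in N+PD30 (log2 fold change 0.41 ± 0.17 (SE), adjusted p = 0.068). These calls were fragile. SPRED2 in N+PD30 was lost without Nutlin replicate 1 or 2 or N+PD30 replicate 2 or 3 (adjusted p 0.0555 to 0.095), and SPRED2 in N+PD24 without Nutlin replicate 2 (0.0764). SPRED1 in N+PD24 was lost without Nutlin replicate 1 or 2 or N+PD24 replicate 1 or 3 (0.0681 to 0.154), with total-count scaling (0.0768), without the low-value filter (0.0674) and with 1 fit over all groups (0.0503). SPRED1 in N+PD30 was gained without N+PD30 replicate 1, the library of lowest depth (0.0113). SPRY2 had 49.6, 46.5 and 63.8 CPM in N+PD30 and 41.1, 33.5 and 54.3 CPM in N+PD24, which overlapped with Nutlin in both.

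ETV5 and ETV4 moved apart. ETV5 had 52.1, 75.6 and 83.3 CPM in N+PD30, all above the Nutlin libraries, and rose 1.5-fold (log2 fold change 0.58 ± 0.17 (SE), adjusted p = 0.0156), a call lost without Nutlin replicate 2 or N+PD30 replicate 2 (adjusted p = 0.075 and 0.0624). In N+PD24 it had 38, 32.2 and 39.9 CPM (log2 fold change -0.24 ± 0.13 (SE), adjusted p = 0.201). ETV4 had 13.9, 23.1 and 21.5 CPM in N+PD30 and fell 1.47-fold (log2 fold change -0.55 ± 0.19 (SE), adjusted p = 0.0329). That call was lost without Nutlin replicate 2 or 3 or N+PD30 replicate 1 (0.0619, 0.133 and 0.0832) and with total-count scaling (0.0619). In N+PD24 ETV4 had 16.3, 22.8 and 19.9 CPM, below every Nutlin library (log2 fold change -0.42 ± 0.16 (SE), adjusted p = 0.0648). It passed with upper-quartile normalization (0.049), with 1 fit over all groups (0.049) and without Nutlin replicate 1 (0.0415).

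DUSP4 had 60.1, 82.5 and 87.4 CPM in N+PD30 and 41, 54.3 and 72.9 CPM in N+PD24, which overlapped with Nutlin in both comparisons (log2 fold change 0.30 ± 0.22 (SE), adjusted p = 0.287 in N+PD30). Without Nutlin replicate 3, the highest of that group, the N+PD30 difference passed (adjusted p = 0.0459). Same-numbered N+PD24 and Nutlin libraries deviated together. With the replicate number as a block, ETV4 (-0.42, adjusted p = 0.00267) and ETV5 (-0.24, adjusted p = 0.0241) also fell in N+PD24 against Nutlin. The block raised the count over all genes from 5222 to 7952.

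The direct comparison of the schedules in the presence of Nutlin, N+PD30 against N+PD24, called 2 members, DUSP5 and ETV5, both higher in N+PD30. Of all genes 16.1% were higher and 16.6% lower. By total counts 65.9% of the calls were higher instead of 49.2%, with the median of all genes shifted by 0.13 on the log2 scale. ETV5 was 1.7-fold higher (log2 difference 0.76 ± 0.17 (SE), adjusted p = 0.00836), and this held under every alternative run except the added fold threshold. DUSP5 was 1.45-fold higher (0.54 ± 0.17 (SE), adjusted p = 0.0404), and that call was lost without N+PD24 replicate 2 or 3 or without any of the 3 N+PD30 replicates (adjusted p 0.0551 to 0.162). SPRY4 was lower in N+PD30 by 0.55 on the log2 scale (adjusted p = 0.0643), short of the threshold. It passed without N+PD30 replicate 3 (0.0101) and with 1 fit over all groups (0.0345). DUSP6 gave -0.35 (adjusted p = 0.105).

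**Figure D4:**
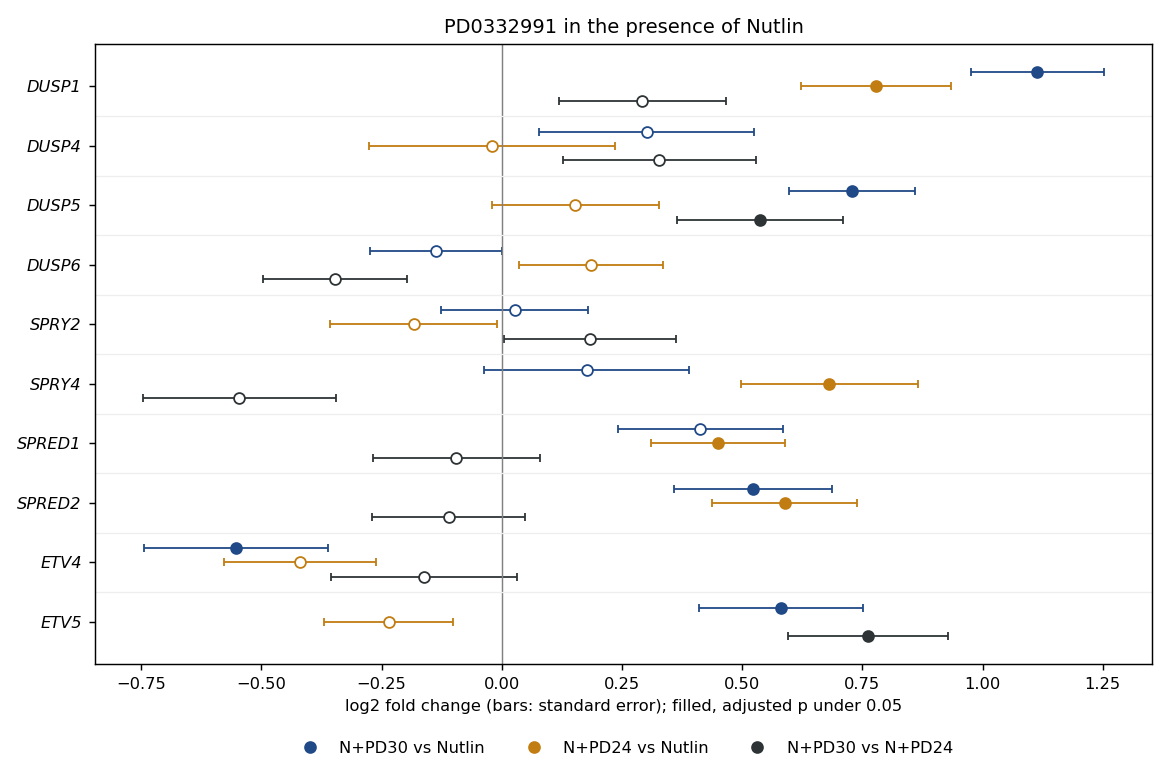
log2 fold change of each member in N+PD30 against Nutlin, N+PD24 against Nutlin and N+PD30 against N+PD24, with bars for the standard error and filled points for an adjusted p under 0.05. DUSP1 lies to the right of 0 in both comparisons with Nutlin, and ETV5 lies to the right in N+PD30 against Nutlin and against N+PD24.

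The lists of the wider pathway were counted in the same comparisons. Of the other ERK target genes, 10 of 12 passed the filter in the comparisons with N+PD24. In N+PD24 against Nutlin 6 of these rose, led by LIF (1.49), PLAUR (1.44) and HBEGF (1.05). In N+PD30 against N+PD24 3 were lower and 1 higher. HBEGF had 15.3, 16.2 and 21.5 CPM in N+PD30 and 65.6, 37.2 and 45.7 CPM in N+PD24 (log2 difference -1.55 ± 0.21 (SE), adjusted p = 0.000985), and PLAUR and TRIB1 were lower by 1.26 and 0.98. In N+PD30 against Nutlin 2 of 12 rose, LIF (1.63) and EPHA2 (0.75), and 1 fell, PHLDA1 (-1.10).

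Among the other phosphatases, DUSP8 had 7.79, 7.83 and 16 CPM in N+PD30, against 0.656, 1.19 and 2.13 CPM in N+PD24 and 1.38, 2.26 and 2.76 CPM with Nutlin alone (log2 difference from N+PD24 2.19 ± 0.29 (SE), adjusted p = 0.000922). DUSP16 was also higher in N+PD30 than in N+PD24 (1.08), and DUSP2 lower (-0.90). DUSP10 rose in N+PD24 against Nutlin (0.91). ETV1 fell in both comparisons with Nutlin (-0.53 in N+PD30 and -0.38 in N+PD24), and CIC, a repressor that ERK inactivates, rose in N+PD30 (0.79). FGFR1 rose in N+PD24 against Nutlin (0.85) and was lower in N+PD30 than in N+PD24 (-0.80). Of the 15 RAS, RAF, MEK and ERK genes 2 rose and 3 fell in both comparisons with Nutlin, and MAPK3 rose in each (0.84 and 0.61).

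The last comparisons asked whether the response of the members to Nutlin differed in cells that had received PD0332991. In N+PD24 against PD24, 6 of the 10 members fell, where 20.5% of all genes fell and 16.4% rose. All 10 log2 fold changes were below 0, with a median of -0.53 against 0.02 for all genes. By total counts 25.0% of the calls over all genes were higher, instead of 44.4%, and the median of all genes shifted by -0.16 on the log2 scale. ETV5 (-0.83 ± 0.12 SE, adjusted p = 0.00074), SPRY2 (-0.73 ± 0.17, 0.00735) and SPRED1 (-0.72 ± 0.16, 0.00669) fell under every alternative run except the added fold threshold. DUSP5 (-0.63, adjusted p = 0.0479), DUSP1 (-0.54, 0.031) and SPRY4 (-0.52, 0.0199) fell with groups that did not overlap.

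These last 3 calls did not hold when some libraries were left out in turn, although the direction stayed the same. Leaving out a replicate, the log2 fold change ranged from -0.71 to -0.40 for DUSP1, -0.61 to -0.37 for SPRY4 and -0.79 to -0.40 for DUSP5. DUSP1 was lost without PD24 replicate 1 or 2 or N+PD24 replicate 2 or 3 (adjusted p 0.0558 to 0.147), SPRY4 without PD24 replicate 1 or N+PD24 replicate 2 (0.0747 and 0.101), and DUSP5 without PD24 replicate 1 or 3 or N+PD24 replicate 2 or 3 (0.0627 to 0.199). DUSP5 was also lost with upper-quartile normalization (0.0598) and without the low-value filter (0.053). With the replicate number as a block, DUSP6 also fell (-0.45, adjusted p = 0.00429). In CPM by library total, its N+PD24 replicates were all below its PD24 replicates. That scaling shifted the median of all genes by -0.16 on the log2 scale relative to the TMM scaling of the test.

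In N+PD30 against PD30, 1 member passed the test. SPRED1 was 1.65-fold lower with Nutlin (log2 fold change -0.73 ± 0.18 (SE), adjusted p = 0.031), where 5.64% of all genes fell and 8.84% rose. It was lost without PD30 replicate 1 or 3 or N+PD30 replicate 1 or 2 (adjusted p 0.0572 to 0.111). Without N+PD30 replicate 3 SPRY2, SPRY4 and ETV5 were lower and DUSP1 higher as well (adjusted p 0.0189 to 0.0441). Same-numbered libraries of these groups deviated together, though only 4 of 6 correlated best with their own number. With the replicate number as a block 5 members were lower with Nutlin: SPRED1, DUSP4 (-0.44, adjusted p = 0.018), SPRY2 (-0.38, 0.0147), SPRY4 (-0.43, 0.0282) and ETV5 (-0.43, 0.0303). The count over all genes rose from 2183 to 4375. By total counts 43.8% of the calls over all genes were higher, instead of 61.1%.

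The difference between the Nutlin responses with and without PD30 was tested by an interaction term over 12 libraries. The term was above 0 for 9 of the 10 members, with a median of 0.35 against 0.06 for all genes, and passed the threshold for DUSP5 and ETV5. Of all genes tested, 12.8% passed it above 0 and 7.03% below. A term above 0 means a weaker fall or a stronger rise with Nutlin in PD30 cells. DUSP5 changed by -0.40 with Nutlin alone and by 0.16 with PD30, and the difference was 0.61 ± 0.16 (SE, adjusted p = 0.02). ETV5 changed by -1.22 and -0.41, and the difference was 0.86 ± 0.20 (SE, adjusted p = 0.00877). The ETV5 result held under every alternative run except the added fold threshold. The DUSP5 result was lost with upper-quartile normalization (adjusted p = 0.1), with 1 fit over all groups (0.128), and without DMSO replicate 2 or Nutlin replicate 1 or 2 (0.0515 to 0.0593). With the upper quartile 39.0% of the calls over all genes were higher instead of 64.5%, and the median of all genes shifted by -0.18 on the log2 scale. SPRED2 gave 0.54 ± 0.20 (SE, adjusted p = 0.0761), and passed without Nutlin replicate 3 or N+PD30 replicate 1 (0.0235 and 0.0232). SPRED1 gave 0.49 ± 0.23 (SE, adjusted p = 0.158). With the replicate number as a block 4 members were called instead of 2, SPRED2 (adjusted p = 0.0154) and SPRED1 (0.0349) being added. DUSP1 gave 0.48 ± 0.21 (0.133), and passed without DMSO replicate 3 (0.0292).

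The same term for PD24, fitted with limma, called none of the members, where 0.923% of all genes were above 0 at that threshold and 0.699% below. At an unadjusted p under 0.05 it counted 1 member, SPRED2 (0.47 ± 0.19 SE, limma adjusted p = 0.328), and edgeR on the recovered reads also called none. The intervals were wide. For ETV5 the difference was 0.34 with a 95% interval of -0.02 to 0.70, and for DUSP6 -0.58 with -1.15 to 0.00.

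**Figure D5:**
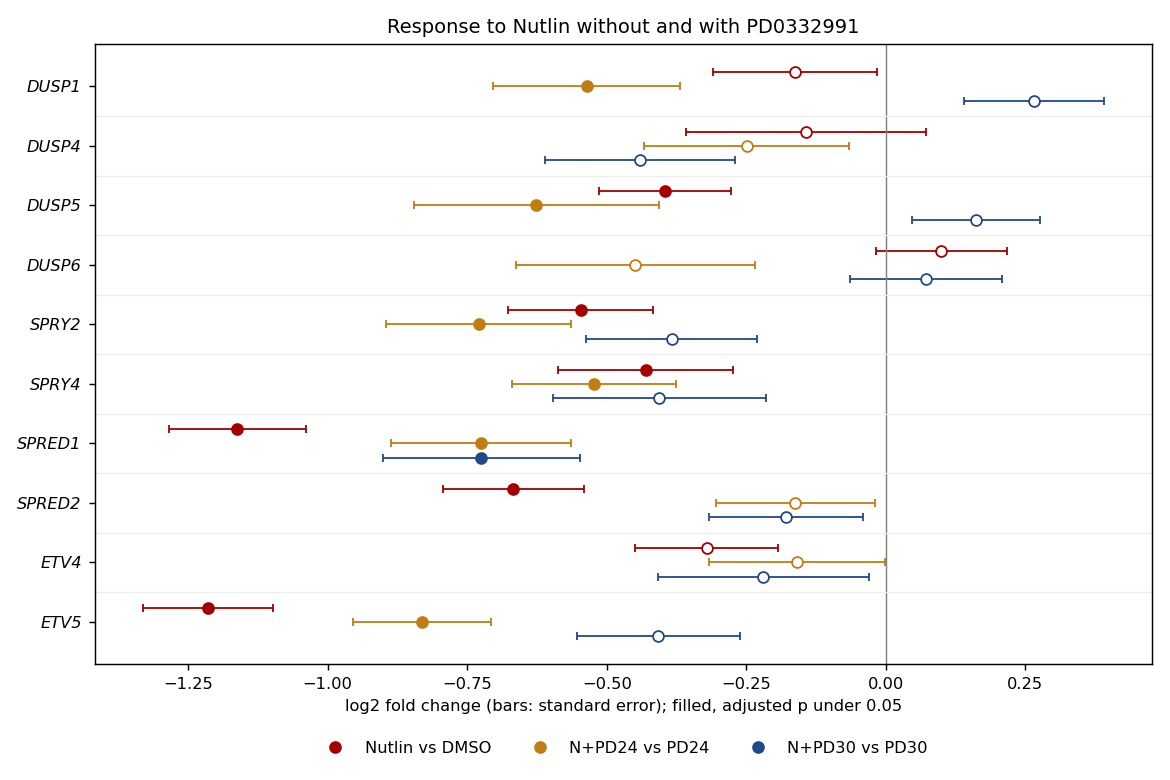
log2 fold change of each member on adding Nutlin to DMSO cells, to PD24 cells and to PD30 cells, with bars for the standard error and filled points for an adjusted p under 0.05. ETV5 and SPRED1 are lowest with Nutlin alone, and DUSP5 lies left of 0 in DMSO and PD24 cells and right of 0 in PD30 cells.

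Profiles over the 6 groups were compared for DUSP5, DUSP6, SPRY4 and ETV5. Each profile was the mean log2(CPM + 1) of a group, centred on the gene's own mean, and likeness was the root mean square difference over the 6 groups among 10891 genes with a mean of at least 5 CPM. Among the members, DUSP6 and SPRY4 were nearest to each other (0.25), SPRY2 and SPRED1 to each other (0.24), and DUSP5 and SPRED2 to each other (0.21). Over all genes the nearest to DUSP6 were RIN2 (0.085), TNFAIP2 (0.092) and TOP1MT (0.10), and the nearest to SPRY4 were FJX1 (0.081), CREB3L1 (0.086) and GNL3L (0.087). DUSP5 was nearest to POLR3E (0.030), TIMM44 (0.056) and ATXN7L3B (0.060), and ETV5 to S100PBP (0.067), SLC38A2 (0.077) and ZNF292 (0.077). None of these 12 genes is on a list used here. Many genes lay nearer to DUSP6 than SPRY4 did, since SPRY4 ranked 680 of all genes compared, and DUSP6 ranked 365 for SPRY4.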

How the data were processed

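Libraries were made from total RNA with the TruSeq RNA LT kit, whose strand property the methods do not state, and sequenced as single reads. The authors aligned reads against hg19 (TopHat, Bowtie 2), counted them per gene symbol with HTSeq 0.6.0 under its reverse-strand setting, and deposited read counts per library for DMSO, Nutlin, PD24, PD30 and N+PD30. The N+PD24 values were deposited by the authors as a signal: each library's counts had been divided by its size factor. Multiplied back, 100% of the N+PD24 values were whole within 0.01. The authors' further tables hold size-factor-scaled copies of these counts and their own DESeq2 fold changes and p-values for Nutlin, and were not used. Groups came from the sample titles, and the schedules from the study's scheme. The labels give Nutlin at 20 µM.

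Of 23368 gene rows 28 had been turned into dates and kept those names. CPM were computed from each library's own total. Whether groups overlapped was read from these CPM, while the tests used TMM scaling, so groups that lie close may overlap on the scale of the test. Comparisons of deposited counts were tested with edgeR 4.0.16 (quasi-likelihood, TMM, filterByExpr, R 4.3.3), and those with N+PD24 with limma 3.58.1 (trend) on log2(CPM + 1) for genes at 1 CPM or more in at least 3 libraries. Fold changes there are on the log2(CPM + 1) scale, which understates changes of low genes. P-values were adjusted by Benjamini-Hochberg over all genes tested, and called means an adjusted p under 0.05. The scripts were tested on simulated data. Alternatives were total-count and upper-quartile scaling, no filter, a pseudocount of 0.5, DESeq2 1.42.0, edgeR on the recovered reads, a fold threshold, 1 fit over all groups, a replicate block, and each replicate left out in turn. The numbers paired the samples, with every same-number correlation of deviations above 0.1, for N+PD24 with Nutlin (0.46 to 0.68), N+PD24 with PD24 (0.22 to 0.57), N+PD30 with PD30 (0.20 to 0.71) and PD30 with PD24 (0.32 to 0.62), and in the PD30 interaction also for N+PD30 with DMSO (0.32 to 0.57). This rests on the data, since the labels do not say what a number marks. All members are named, and from each pathway list at most 3 genes a comparison, those with the largest change among called genes whose groups do not overlap. The members and lists were chosen with earlier results of these data known.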

Additional observations from a re-analysis of the deposited data

Results flagged for a closer look

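The response to Nutlin differed between cells without and with PD0332991 for 30 h in 2 members, tested with edgeR as an interaction of both treatments. For ETV5 the difference was 0.86 on the log2 scale (adjusted p = 0.00877). Nutlin lowered it in DMSO cells, from 109, 122 and 116 to 48.8, 37.4 and 51 CPM, and in PD30 cells it had 97.6, 98.6 and 102 CPM without and 52.1, 75.6 and 83.3 CPM with Nutlin. For DUSP5 the difference was 0.61 (adjusted p = 0.02). It had 71.6, 84.1 and 90.5 CPM in DMSO and 51.7, 53.8 and 66.3 CPM with Nutlin, and 99.5, 96 and 83.2 CPM in PD30 and 105, 90.5 and 96 CPM in N+PD30. The DUSP5 result did not hold without Nutlin replicate 1 or 2 or DMSO replicate 2. With 3 libraries a group, single libraries were not tested as outliers.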

How the results depend on the processing

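Member values were recomputed 1480 times, of which 1314 kept both direction and side of the threshold, 73 lost a call, 30 gained one and 63 changed sign. No value that changed sign passed the threshold under either setting, and 20 of the 40 called member values kept their call under every alternative other than an added fold threshold. With an absolute log2 fold change over 1 added to the call rule, genes called (and members called) numbered 3277 (2) in Nutlin against DMSO, 2305 (0) in PD30 against DMSO, 1898 (1) in PD24 against DMSO, 1137 (0) in PD30 against PD24, 3510 (1) in N+PD30 against Nutlin, 555 (0) in N+PD30 against PD30, 1121 (0) in N+PD24 against Nutlin, 1026 (0) in N+PD30 against N+PD24, 1226 (0) in N+PD24 against PD24, 1647 (0) in the Nutlin by PD30 interaction and 125 (0) in the Nutlin by PD24 interaction. With the replicate number as a block, genes called were 6107 in PD30 against PD24, 4375 in N+PD30 against PD30 and 7952 in N+PD24 against Nutlin, and 421 in the Nutlin by PD24 interaction, and members called were 5 in N+PD30 against PD30 and 4 in the Nutlin by PD30 interaction, where SPRED1 and SPRED2 were added (adjusted p = 0.0349 and 0.0154). Numbers did not pair the samples in Nutlin against DMSO, PD30 or PD24 against DMSO, or N+PD30 against Nutlin or N+PD24, and paired only some of the groups in each of the 2 interactions. ETV4 in Nutlin against DMSO was also gained under the block (adjusted p = 0.0403). Between Nutlin and DMSO 2 of 6 libraries correlated best with their own number, and 3 or 4 of 6 in the other comparisons of 2 groups just named. It was also 4 of 6 for N+PD30 with PD30, whose numbers were taken to pair. There N+PD30 replicate 1 correlated better with PD30 replicate 2 (0.49) than with PD30 replicate 1 (0.20). In the other paired comparisons of 2 groups it was 6 of 6. Apart from the calls named here and in the report, the block changed no other member's call. Members called numbered 2 in N+PD30 against PD30 and 1 in the Nutlin by PD30 interaction with 1 fit over all groups, and 1 in that interaction with upper-quartile normalization, and genes called numbered 116 in the Nutlin by PD24 interaction with edgeR on the recovered reads. Leaving out 1 replicate at a time, genes called ranged from 7122 to 8661 in Nutlin against DMSO, 5898 to 7135 in PD30 against DMSO, 3902 to 5850 in PD24 against DMSO, 2178 to 4117 in PD30 against PD24, 6147 to 7686 in N+PD30 against Nutlin, 583 to 3384 in N+PD30 against PD30, 3610 to 4955 in N+PD24 against Nutlin, 2572 to 4311 in N+PD30 against N+PD24, 2832 to 4201 in N+PD24 against PD24, 2264 to 3281 in the Nutlin by PD30 interaction and 105 to 203 in the Nutlin by PD24 interaction. Members called ranged from 4 to 7 in Nutlin against DMSO, 3 to 4 in PD30 against DMSO, 4 to 5 in PD24 against DMSO, 2 to 5 in PD30 against PD24, 2 to 5 in N+PD30 against Nutlin, 0 to 5 in N+PD30 against PD30, 1 to 4 in N+PD24 against Nutlin, 1 to 2 in N+PD30 against N+PD24, 3 to 6 in N+PD24 against PD24, 1 to 3 in the Nutlin by PD30 interaction and 0 to 0 in the Nutlin by PD24 interaction. The uncalled log2 values that changed sign were with total-count scaling -0.024 for DUSP6 in Nutlin against DMSO, -0.021 for SPRY2 in PD24 against DMSO, -0.018 for DUSP6 in N+PD30 against PD30, 0.041 for SPRED1 in N+PD30 against N+PD24 and 0.025 for SPRED2 in N+PD30 against N+PD24. They were with upper-quartile normalization 0.028 for SPRED1 in PD30 against DMSO, -0.038 for SPRY2 in N+PD30 against Nutlin, -0.16 for DUSP6 in the Nutlin by PD30 interaction, -0.11 for SPRY4 in the Nutlin by PD30 interaction and -0.032 for ETV4 in the Nutlin by PD30 interaction. They were with no low-value filter -0.014 for SPRY2 in PD24 against DMSO. They were with 1 fit over all groups -0.00024 for SPRY2 in PD24 against DMSO and -0.052 for DUSP6 in the Nutlin by PD30 interaction. They were with DESeq2 -0.024 for DUSP6 in the Nutlin by PD30 interaction. Leaving out a replicate, those that changed sign ranged in Nutlin against DMSO DUSP1 from -0.32 to 0.0031 and DUSP4 from -0.43 to 0.071. They ranged in PD30 against DMSO SPRED2 from -0.038 to 0.092 and SPRED1 from -0.16 to 0.069. They ranged in PD24 against DMSO DUSP4 from -0.061 to 0.16, SPRY2 from -0.076 to 0.082, SPRED1 from -0.059 to 0.17 and SPRED2 from -0.0046 to 0.15. They ranged in PD30 against PD24 DUSP5 from -0.38 to 0.0038, SPRED1 from -0.21 to 0.022, ETV4 from -0.20 to 0.065 and SPRED2 from -0.13 to 0.032. They ranged in N+PD30 against Nutlin SPRY2 from -0.093 to 0.16 and SPRY4 from -0.049 to 0.40. They ranged in N+PD30 against PD30 DUSP6 from -0.036 to 0.18. They ranged in N+PD24 against Nutlin DUSP4 from -0.29 to 0.19 and DUSP5 from -0.0096 to 0.34. They ranged in N+PD30 against N+PD24 SPRED1 from -0.25 to 0.083, SPRED2 from -0.21 to 0.039 and ETV4 from -0.29 to 0.046. They ranged in the Nutlin by PD30 interaction DUSP6 from -0.084 to 0.13, SPRY4 from -0.15 to 0.28 and DUSP4 from -0.47 to 0.022. They ranged in the Nutlin by PD24 interaction DUSP4 from -0.34 to 0.15 and SPRY4 from -0.24 to 0.085. The lowest count of a member was 177 reads, and whether depth or the spread of 3 replicates a group limits the calls was not tested. Without N+PD30 replicate 1, the library of lowest depth, SPRED1 in N+PD30 against Nutlin (adjusted p = 0.0113) and SPRED2 in the Nutlin by PD30 interaction (0.0232) were gained.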

Other observations

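Within the groups from which PD0332991 had been removed, replicate 1 stood highest for several members. In PD24 it was the highest library for 5 of the 10 members, with 60.6 CPM for DUSP6 against 37.9 and 33.9 CPM in the other two, and with 146 CPM for DUSP5 against 86.8 and 93.2 CPM. HBEGF, another ERK target, had 86.2 CPM in that library and 49 and 41.3 CPM in the others. In N+PD24, DUSP1, DUSP5, DUSP6 and HBEGF were also highest in replicate 1, at 65.6, 37.2 and 45.7 CPM for HBEGF. In N+PD30, replicate 1 was the lowest library for 7 of the 10 members and the highest for DUSP1 and DUSP5, and it also had the lowest total count, 12704845. Replicate 3 was the highest library for 8 members in DMSO, 9 in Nutlin, 7 in PD30, 6 in N+PD24 and 7 in N+PD30.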
